A study of Mus musculus with 20 samples.

Results

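The electron transfer flavoprotein (ETF) and the auxiliary enzymes of mitochondrial fatty acid oxidation were followed in the liver of mice on a low-fat and a high-fat diet. They comprise 7 genes: Etfa, Etfb, Etfdh, Decr1, Eci1, Eci2 and Acaa2. Members were chosen by gene symbol, with earlier results of this diet comparison known, so the diet differences below are a description of these arrays and no independent evidence. Every probe set whose platform annotation gave exactly 1 gene symbol, and that symbol a member, was taken. This found 11 probe sets, of 45037 that are not controls, for all 7 genes of 18193 named genes. The mice were male C57BL/6J, an inbred strain, bought at 3 weeks of age, kept on the low-fat diet for 1 week and 8 weeks old at sampling. The diet groups, 10 mice each, then ate for 4 weeks a diet with 10% (low-fat) or 45% (high-fat) of its energy as fat, and all were fasted for 16 h before the liver was taken. Further high-fat groups of the study, given a maple syrup extract, are not analysed here.

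In each turn of mitochondrial fatty acid oxidation a flavin enzyme, an acyl-CoA dehydrogenase, takes electrons from the fatty acid. The electrons pass to ETF, a soluble carrier made of 1 alpha chain (Etfa) and 1 beta chain (Etfb), and then through ETF-ubiquinone oxidoreductase (Etfdh), in the inner membrane, to ubiquinone of the respiratory chain. Unsaturated fatty acids need auxiliary enzymes besides: dienoyl-CoA reductase (Decr1) removes a double bond with NADPH, and the enoyl-CoA isomerases (Eci1, Eci2) move a double bond to where the pathway can use it. Acaa2 is the mitochondrial ketoacyl-CoA thiolase, which releases acetyl-CoA at the end of a turn. In the fasted liver this pathway feeds ketone body synthesis, and many of its genes are known targets of the nuclear receptor PPAR-alpha.

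The deposited value is a score per probe set that runs like a log2 intensity, from 5.18 to 15.0, but its differences between mice are strongly compressed. Over the 20 arrays a probe set's SD had a median of 1.17e-05, and the compression differed between probe sets. Differences are therefore given in millionths of a score unit from the low-fat mean, which can be compared between mice for 1 probe set and never between probe sets. Sizes are standardised differences (high-fat minus low-fat mean, over the pooled SD within diets, n = 10 per diet, 95% interval from the noncentral t distribution). The number of arrays limits the precision of both. The median score of an array lay between 6.56702 and 6.56720, with the high-fat group above the low-fat group by 73.3 millionths (1.33 SD). Spiked poly-A controls (27 probe sets, averaged after standardising) read lower in the high-fat mice (-0.87 SD). The gap between the 3′ and 5′ control probe sets of Gapdh, a measure of RNA integrity, stood at 0.89 SD, and that of beta-actin at -0.44 SD. Hepatocyte markers lay high (Alb 14.82, Ttr 14.53, Apoa1 14.58). Their mean score ran from 13.79606 to 13.80289 in low-fat and from 13.79220 to 13.80569 in high-fat mice. That mean follows Tat, the least compressed of them (diet difference 0.00609, against -4.4e-06 for Cps1), so its overlap does not describe the markers as a group. Ttr stood at -3.12 (limma adjusted p = 0.241), with every high-fat mouse below every low-fat mouse (higher in 0% of pairs). Of its 3 other probe sets 2 passed downward. Limma draws each variance toward a value shared by all probe sets, which enlarges the p of the most compressed ones. Apoa1 went the other way at 1.35 (adjusted p = 0.727), and its 3 other probe sets were positive too, with 0 passing. Alb stood at -0.67, Cps1 at -0.07 and Tat at 0.35, so the hepatocyte markers gave no common direction. Of 32 measured markers of 8 other cell types and tissues, Cela1 of pancreas passed upward (1.80, adjusted p = 0.0349) and Mylpf of muscle downward (-1.99, adjusted p = 0.0273) in the limma fit over all probe sets. In that fit 3.00% of all genes passed. The other measured markers of pancreas (Cpa1 0.42, Ctrb1 -0.11) and of muscle (Ckm -0.08, Acta1 0.80, Tnnt3 0.29) did not pass. The part of any of these shifts in the members' values was not tested, and in whole liver fewer cells of a type and less RNA per cell cannot be told apart.

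No member probe set passed an adjusted p of 0.05 in the limma fit of all 45037 probe sets (0 of 11), where 2.32% of all probe sets passed. At an unadjusted p below 0.05, 4 of 11 stood out against 15.1% of all probe sets: Etfb and Eci1 with higher scores on the high-fat diet, and 2 of the 3 probe sets of Acaa2 with lower scores. The exact rank sum test, adjusted in the same way, also called 0 of 11, where it called 1.75% of all probe sets. Because the members were picked with this contrast in view, nothing is read from these shares. The median standardised difference was -0.23 over the 11 probe sets and 0.28 over the 7 genes (probe set of highest mean), against 0.04 over all probe sets.

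**Figure D1:**
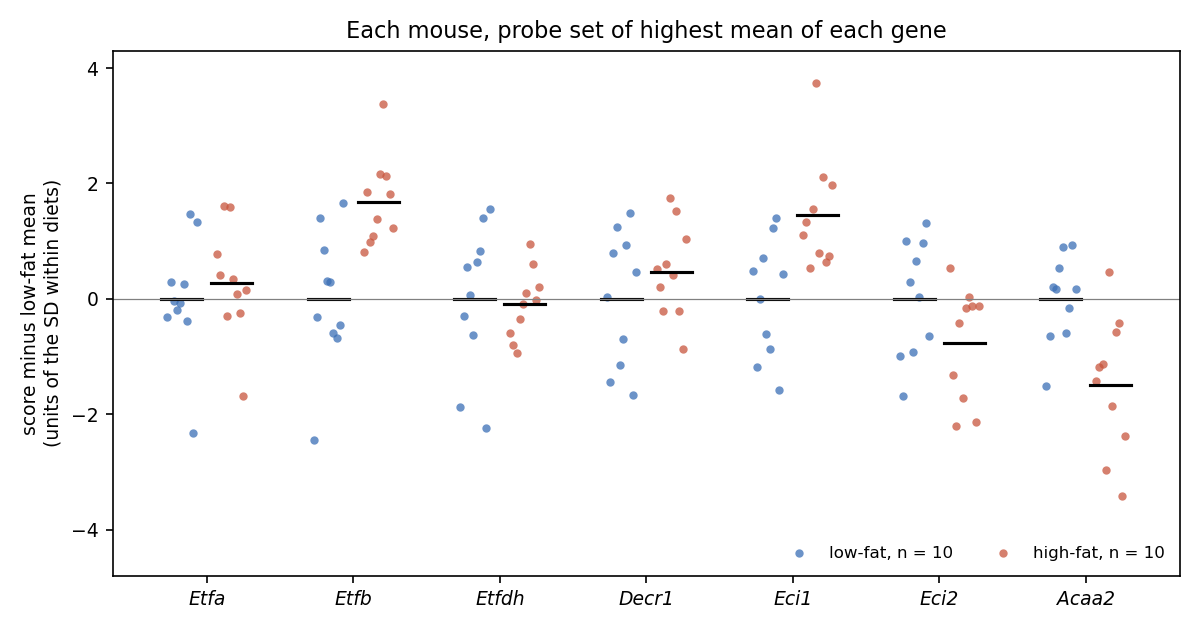
Score of each mouse minus the low-fat mean, in units of the SD within diets, for the probe set of highest mean of each of the 7 genes; blue points are low-fat and red points high-fat mice (10 each), black lines are group means. All 10 high-fat mice lie above the low-fat median for Etfb and Eci1, 9 of 10 lie below it for Acaa2, and the groups overlap for every gene.

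ETF itself was read by 1 probe set for each chain. The stretches before the gene starts are shown for the alpha chain, the beta chain and the oxidoreductase because the products of these 3 genes make up 1 electron path. Each is the 250 bases upstream of the RefSeq gene start (build GRCm38.p6), 5′ to 3′ on the gene's strand. Capitals mark matches, on either strand, to CCAAT, the core bound by the factor NF-Y.
Etfb, chr7:43443822-43444071, plus strand: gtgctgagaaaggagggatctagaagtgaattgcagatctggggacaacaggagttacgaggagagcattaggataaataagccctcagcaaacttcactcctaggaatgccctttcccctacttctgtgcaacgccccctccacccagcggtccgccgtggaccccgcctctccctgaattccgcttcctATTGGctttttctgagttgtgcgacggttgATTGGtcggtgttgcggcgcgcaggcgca
Etfa, chr9:55512244-55512493, minus strand: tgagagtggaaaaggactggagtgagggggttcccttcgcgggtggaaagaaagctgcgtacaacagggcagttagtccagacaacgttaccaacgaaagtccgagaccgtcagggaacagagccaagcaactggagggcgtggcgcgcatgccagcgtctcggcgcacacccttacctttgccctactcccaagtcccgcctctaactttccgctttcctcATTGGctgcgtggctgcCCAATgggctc
Etfdh, chr3:79628768-79629017, minus strand: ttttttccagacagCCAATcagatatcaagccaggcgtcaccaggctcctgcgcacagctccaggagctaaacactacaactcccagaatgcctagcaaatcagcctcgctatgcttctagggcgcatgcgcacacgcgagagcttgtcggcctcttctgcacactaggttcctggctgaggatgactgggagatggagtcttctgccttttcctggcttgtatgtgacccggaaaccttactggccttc
Etfb and Etfa each hold 2 CCAAT matches close to the start, beginning at -59 and -29 in Etfb and at -28 and -11 in Etfa, counted from -1 at the base before the start. Etfdh holds 1 CCAAT, far from the start, at -236. The window of Eci2 (chr13:34994145-34994394, minus strand) lies inside the annotated span of its gene (chr13:34977748-35027115). It is therefore not upstream of the start of that span. It holds 1 CCAAT, at -220 counted from the end of the window. CCAAT is in 4 of the 5 member windows searched, and it occurs in 33.8% of 32851 such windows of all genes. The nuclear receptor half-site AGGTCA, found in 14% of all windows, has no match in the 5 member windows searched (those of Etfa, Etfb, Etfdh, Eci1 and Eci2), and the GC box GGGCGG, found in 32.7%, matches in Eci1 and Eci2. These matches are descriptions of the letters and show no binding.

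Etfb, the beta chain, lay between -14.8 and 9.98 millionths of its low-fat mean in low-fat mice (median -0.063) and between 4.87 and 20.3 in high-fat mice (median 9.63), at a score of 12.01. Every one of the 10 high-fat mice exceeded the low-fat median and 5 exceeded every low-fat mouse, although the ranges overlap. The standardised difference was 1.68 (95% interval 0.63 to 2.70), the high-fat mouse was higher in 89% of the mouse pairs, and the limma adjusted p over all probe sets was 0.0547. With 1 probe set per gene, the same value had an adjusted p of 0.0439, 1 of 7 members in a fit where 3.49% of 18193 genes passed. It also passed without low-fat replicate 3 (0.0346) or low-fat replicate 10 (0.0322). After quantile normalisation its values no longer differed between arrays and were not tested. Centring arrays on their medians gave -1.12 (limma adjusted p = 0.0262). The diet difference of Etfb, 10.1 millionths, is smaller than the 73.3 millionths between the array medians of the diets. That sign was therefore fixed in advance, and nothing is read from it. The call of the beta chain thus changed with the probe sets tested and with 1 array left out, and its direction is given for the deposited scale only.

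Etfa, the alpha chain that pairs with it, ran from -3.67 to 2.31 millionths in low-fat mice (median -0.094) and from -2.65 to 2.53 in high-fat mice (median 0.401). The groups cover nearly the same range. Its standardised difference was 0.28 (95% interval -0.61 to 1.15, limma adjusted p = 0.877), so the interval of the alpha chain overlaps that of the beta chain. Whether the chains differ in their response was not tested.

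Etfdh, which hands the electrons to ubiquinone, ran from -11.9 to 8.31 millionths in low-fat mice (median 1.64) and from -4.98 to 5.03 in high-fat mice (median -0.288), in its probe set 1451084_at. The high-fat mice lie inside the low-fat range, with an SD of 3.18 millionths against 6.84. The standardised difference was -0.09 (95% interval -0.97 to 0.79, limma adjusted p = 0.954). The other probe set of Etfdh, 1458152_at, lay at a score of 6.66, near the median of 6.57 over all probe sets, and stood at -0.35 (-1.22 to 0.54, limma adjusted p = 0.774), and after quantile normalisation it passed downward (-1.58, adjusted p = 0.0329). Among mice of the same diet no common variation of the 2 probe sets was detected (r = -0.12, permutation p = 0.673).

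Among the enzymes for unsaturated fatty acids, the standardised difference of the isomerase Eci1 lay farthest from 0. Its probe set ran from -37.5 to 33.3 millionths in low-fat mice (median 5.05) and from 12.5 to 88.5 in high-fat mice (median 28.7). Here too, 10 of 10 high-fat mice exceeded the low-fat median, and 4 exceeded every low-fat mouse. The standardised difference was 1.45 (95% interval 0.44 to 2.43), the high-fat mouse was higher in 87% of pairs, and the limma adjusted p was 0.0911. This difference was -0.27 after quantile normalisation, where 380 of all probe sets passed upward and 3784 downward. After centring arrays on their medians it was -0.59. The centring fixed that sign in advance, as Eci1 differed by 34.3 millionths and the array medians by 73.3. The direction of Eci1 is therefore given for the deposited scale only.

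Decr1, the reductase, ran from -20.8 to 18.5 millionths in low-fat mice (median 3.09) and from -10.9 to 21.7 in high-fat mice (median 5.77) in its probe set 1419367_at, with broad overlap. The standardised difference was 0.47 (95% interval -0.42 to 1.36, limma adjusted p = 0.672). After median centring it was -1.13, a sign that the shift of the array medians fixed in advance. Its other probe set, 1449443_at, stood at -0.23 (-1.11 to 0.65, limma adjusted p = 0.857). The probe sets thus give no common direction for the diet, although they rose and fell together from mouse to mouse within diets (r = 0.81).

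Eci2, an isomerase found in mitochondria and peroxisomes, had a lower mean on the high-fat diet. It ran from -2.24 to 1.73 millionths in low-fat mice (median 0.21) and from -2.91 to 0.705 in high-fat mice (median -0.39), and 3 high-fat mice lay below every low-fat mouse. The standardised difference was -0.76 (95% interval -1.67 to 0.16, limma adjusted p = 0.624). Its SD over the 20 arrays was among the smallest (percentile 0.7 of all probe sets). In the fit without shared variances the adjusted p was 0.45, and by the exact rank sum test 0.433.

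The thiolase gene Acaa2 had 3 probe sets, all with lower means on the high-fat diet. In 1428146_s_at, low-fat mice ran from -6.53 to 4.02 millionths (median 0.71) and high-fat mice from -14.7 to 2.01 (median -5.64), with 4 high-fat mice below every low-fat mouse. The standardised difference was -1.49 (95% interval -2.47 to -0.47, limma adjusted p = 0.099), and the high-fat mouse was higher in 16% of pairs. It passed without high-fat replicate 5 (adjusted p = 0.0497), the mouse with the highest high-fat value. In 1428145_at, low-fat mice kept within -2.9 to 3.84 millionths, while high-fat mice spread from -31.7 to 2.61, 7 of them below every low-fat mouse. Its SD was 4.72 times as large on the high-fat diet, and its standardised difference was -1.21 (-2.16 to -0.23, limma adjusted p = 0.18). In 1455061_a_at the values ran from -126 to 177 and from -679 to 52.3 millionths, and the standardised difference was -0.75 (-1.65 to 0.17, limma adjusted p = 0.45). The high-fat mouse with the lowest value was replicate 9 in all 3 probe sets. The suffixes mark probe sets that may read several transcripts, and 1428146_s_at and 1428145_at were designed on the same accession.

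**Figure D2:**
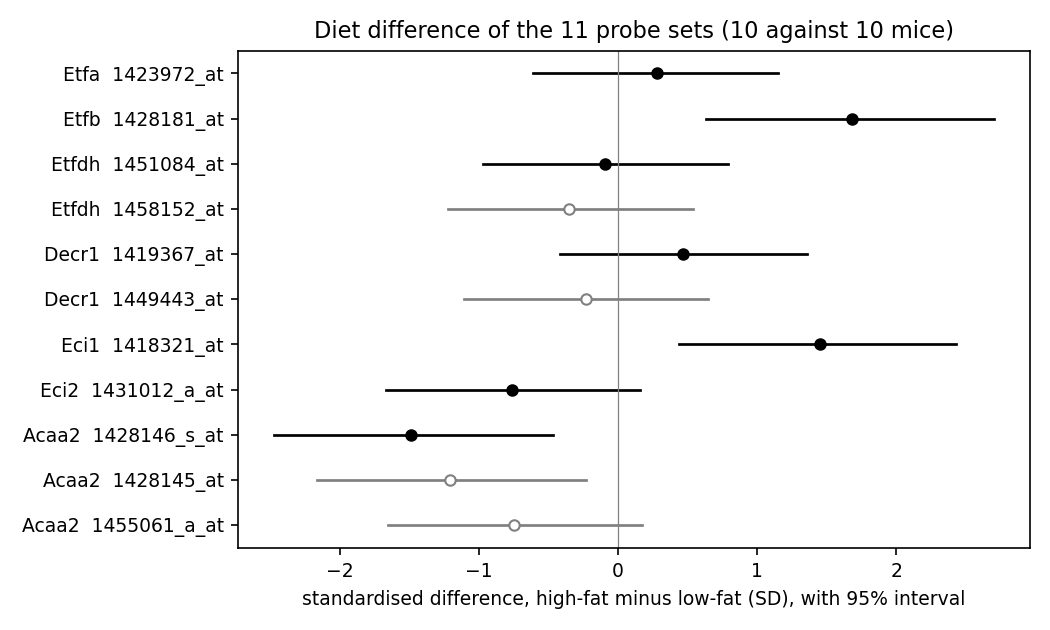
Standardised difference between diets (high-fat minus low-fat, in SD within diets, n = 10 each) with its 95% interval for the 11 probe sets; filled points are the probe set of highest mean of each gene and open points its other probe sets. The intervals of Etfb, Eci1 and 2 probe sets of Acaa2 leave out 0, the other 7 include it, and Acaa2 lies below 0 in all 3.

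How the genes varied among mice on the same diet does not use the diet contrast. For each of the 21 pairs of members, deviations from the diet means were correlated over the 20 mice and tested by permuting mice within diets, with p adjusted over the 21 pairs. Of these pairs 19 had a positive Pearson r, with a median of 0.23, against 0.00 over all pairs of the 18193 genes, of which 50.3% were positive and the middle 90% lay between -0.45 and 0.47. Only the pair of Decr1 and Eci1 passed. Pairs that share a gene are not independent of each other.

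Decr1 and Eci1 rose and fell together from mouse to mouse, with r = 0.89 (permutation p = 1e-05, the smallest these permutations can give, adjusted p = 0.00021) and rho = 0.93 (permutation p = 1e-05, adjusted p = 0.00021). The relation held among the low-fat mice alone (r = 0.93, permutation p = 0.00027, adjusted p = 0.00567) and the high-fat mice alone (r = 0.86, permutation p = 0.00033, adjusted p = 0.00693). Without the 2 mice farthest from the median of Decr1, r was 0.86. Of all 18193 genes, Eci1 was the one most like Decr1 by this measure, and Decr1 the one most like Eci1. Atp1a4 came almost as close to Eci1 (r = 0.88), at a score of 6.13, below the median of 6.57 over all probe sets. So close a covariation with Eci1 was not confined to genes of fatty acid oxidation. Only 0.0013% of all pairs of genes had an r above theirs. The other probe set of Decr1 gave r = 0.81 with Eci1 (rho = 0.71, permutation p = 6e-05 for r and 0.00119 for rho), and 0.81 with the first (permutation p = 5e-05). A reductase and an isomerase that both act on unsaturated acyl-CoAs thus had the closest covariation among the members, while for the isomerases Eci1 and Eci2 no relation was detected (r = 0.03, permutation p = 0.918).

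**Figure D3:**
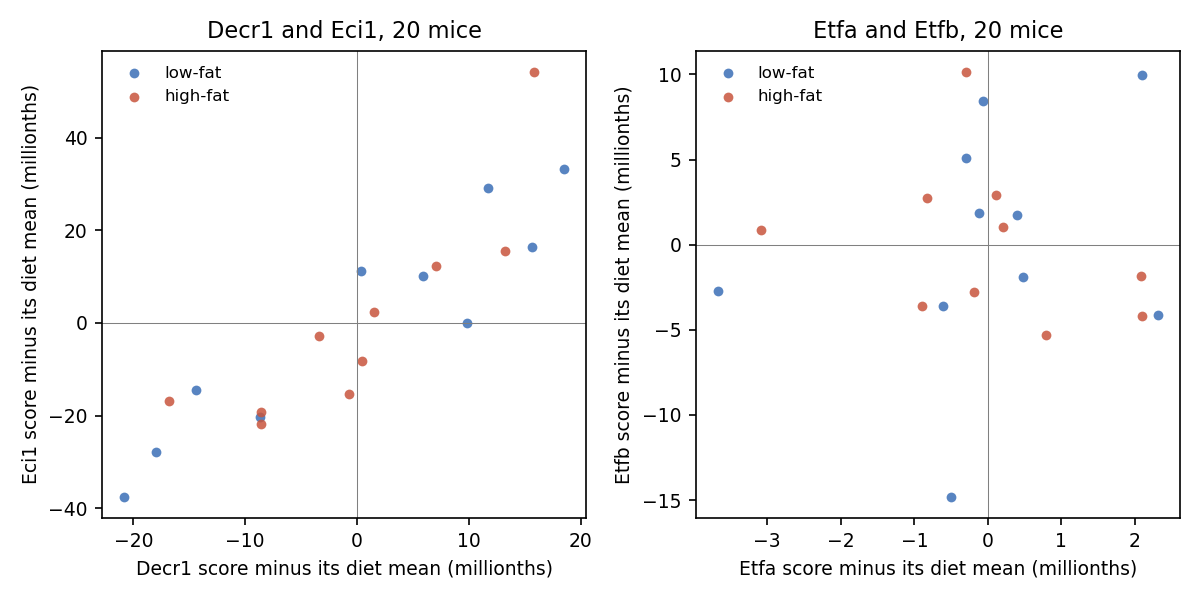
Deviation of each mouse from its diet mean, in millionths of a score unit, for Decr1 and Eci1 (left) and for Etfa and Etfb (right); blue points are low-fat and red points high-fat mice, 10 each. The left points follow a rising line (r = 0.89) and the right points show no such line (r = 0.05).

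For the 2 chains of ETF, which pair 1 to 1 in the protein, no relation was detected (r = 0.05, permutation p = 0.853, rho = -0.04, permutation p = 0.872). Etfb came closest to Etfdh (r = 0.60, permutation p = 0.0148, adjusted p = 0.156, rho = 0.48), and without the 2 mice farthest from the median of Etfb this r was 0.39. Etfdh with Decr1 had r = 0.55 (permutation p = 0.0281, adjusted p = 0.157, rho = 0.48), and Etfa with Decr1 had r = 0.49 (permutation p = 0.03, adjusted p = 0.157, rho = 0.21), which was 0.17 without the 2 mice farthest from the median of Etfa. For Etfa and Etfdh, r was 0.80 in low-fat and -0.40 in high-fat mice, with 0.42 over all (adjusted permutation p = 0.201). That difference was not tested.

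**Figure D4:**
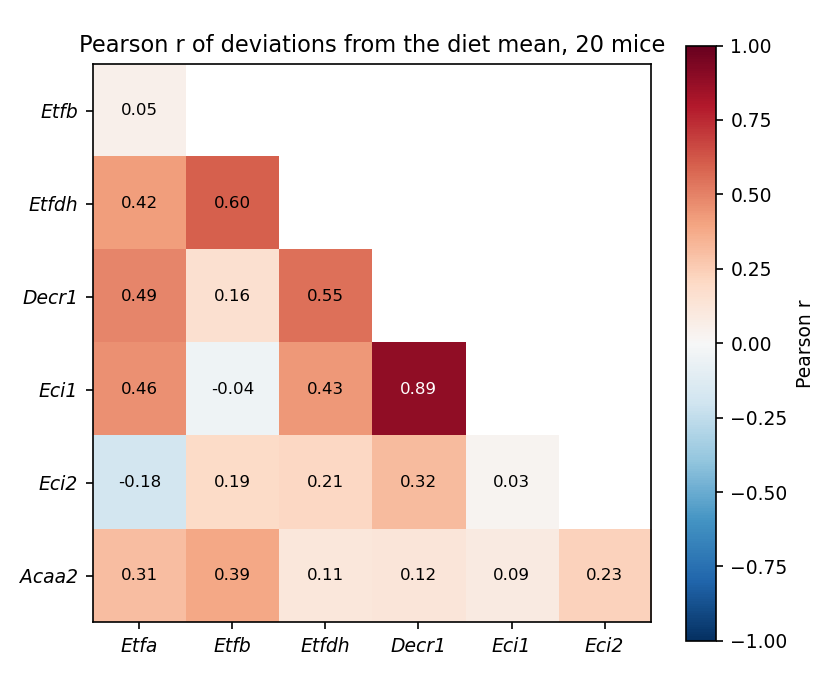
Pearson r of the deviations from the diet mean over 20 mice for the 21 pairs of the 7 genes, on a scale from -1 to 1; red is positive and blue negative. Decr1 with Eci1 (0.89) stands apart from the next pair, Etfb with Etfdh (0.60), and 2 pairs are below 0.

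Of the 3 pairs of Acaa2 probe sets 2 varied together within diets, 1428145_at with 1455061_a_at at r = 0.86 (permutation p = 7e-05, rho = 0.68, permutation p = 0.00225) and with 1428146_s_at at r = 0.73 (permutation p = 0.00092, rho = 0.52, permutation p = 0.0239). Without the 2 mice farthest from the median of the first-named or the s-suffixed probe set these were 0.63 and 0.52. Their adjusted p over the 55 pairs of member probe sets was 0.000962 and 0.0101 for r, and 0.0309 and 0.22 for rho. The third pair did not pass (r = 0.52, permutation p = 0.0327, adjusted p = 0.128). By diet, r was 0.73 in low-fat and 0.91 in high-fat mice for the first pair, 0.35 (permutation p = 0.325) and 0.83 for the second, and 0.13 and 0.66 for the third. The difference between diets was not tested. No member varied with the array median, the spike-in score or the 3′ to 5′ gaps past an adjusted permutation p of 0.05 (28 relations, smallest 0.166). At an unadjusted p below 0.05 there were 3: beta-actin's gap with Acaa2 (r = -0.58) and Etfa (r = -0.55), and Gapdh's gap with Etfb (r = -0.55).

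The members were also set against 47 measured genes of 5 lists around them, which makes 329 relations. By the permutation of mice within diets 15 passed an adjusted p of 0.05, 14 of them positive, 5 with Decr1, 3 with Acaa2, 2 each with Etfa, Etfdh and Eci1, 1 with Etfb and 0 with Eci2. The share that passes with genes outside the lists was not computed. The count therefore does not show that these relations are particular to the pathway. Decr1 rose and fell with Hadhb, the thiolase chain of the trifunctional protein (r = 0.76), with Decr2, its peroxisomal counterpart (0.75), and with Acad11, an acyl-CoA dehydrogenase (0.72). Acat1, the acetoacetyl-CoA thiolase (0.70), and Cpt1a, which admits fatty acids to the mitochondrion (0.67), were the other 2. Eci1 did so with Acaa1a, the peroxisomal thiolase (0.74), and Hadhb (0.71). Etfdh was tied to the long-chain dehydrogenase Acadl (0.71) and the dienoyl-CoA isomerase Ech1 (0.62), and Etfb to the very-long-chain dehydrogenase Acadvl (0.73). Acaa2 was tied to the dehydrogenases Acad8 (0.77) and Acad9 (0.60) and to the hydratase Echs1 (0.68). Etfa was tied to Acat1 (0.65) and, inversely, to Prodh, proline dehydrogenase (-0.67). Those of Etfa fell to 0.40 and -0.49 without the 2 mice farthest from its median, and that of Etfb to 0.50. By rank correlation (Spearman) the adjusted permutation p stayed below 0.05 for Decr1 with Decr2, Acad11 and Cpt1a, Eci1 with Acaa1a, Etfdh with Acadl, and Acaa2 with Acad8 and Acad9.

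Of all named genes, those most like each member within diets by Pearson r over the 20 mice were taken, 3 for each. For Etfb they were Gad1os (0.79), Rnf133 (0.78) and Coq6 (0.78), and for Etfa Rps27l (0.81), Pfdn5 (0.80) and Chchd1 (0.78). Etfdh had Dync1li1 (0.78), Cabp5 (0.78) and Myl12a (0.75). Besides Eci1, Decr1 had Acrbp (0.79) and Rdh16 (0.79), and besides Decr1, Eci1 had Atp1a4 (0.88) and Vmn1r65 (0.80). Eci2 had Bmp1 (0.91), Brf1 (0.78) and Ephx2 (0.74), and Acaa2 had Dcaf11 (0.92), Apoa2 (0.83) and Gpd1 (0.82). Rnf133 (score 5.56), Cabp5 (5.97) and Atp1a4 (6.13) lay below the median of 6.57 over all probe sets, Gad1os (6.66) lay near it, and the others lay above it. These are the highest of many correlations over few mice and carry no test.

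Around the members, the diet difference of the 47 genes was described with the limma fit of all probe sets (probe set of highest mean per gene), in which 3.00% of the 18193 genes passed. Of the 47, 1 passed upward and 1 downward, and 12 had an unadjusted p below 0.05, against 15.1% of all probe sets. The lists were chosen with earlier results known, and the unadjusted share over genes was not computed, so nothing is read from this count. Their median standardised difference was 0.27, against 0.04 over all genes.

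Of the 14 electron donors of ETF, the acyl-CoA dehydrogenases and related flavin enzymes, 1 rose and 0 fell, 11 had positive values, and the median was 0.32. Over all probe sets 52.2% had positive values. D2hgdh, a mitochondrial flavoenzyme that oxidises hydroxyglutarate, rose (1.81, 95% interval 0.73 to 2.84, limma adjusted p = 0.0349), with the high-fat mouse higher in 92% of pairs. Its probe set has an s suffix, its other probe set stood at -0.27 (adjusted p = 0.828), and its sign turned after quantile normalisation (-0.45) and median centring (-0.73). The array medians differed by more (7.33e-05) than D2hgdh did (3.91e-05), so its sign after centring was fixed in advance. The fatty acyl-CoA dehydrogenases proper, Acadvl (0.25), Acadl (0.20), Acadm (0.19) and Acads (0.55), did not pass. At an unadjusted p below 0.05 the list held 4 higher and 1 lower gene, where 15.1% of all probe sets had such a p in either direction. Acad8, of valine breakdown, was the lower one at -1.38 (95% interval -2.35 to -0.38, adjusted p = 0.112), and among the higher ones Acad10 stood at 1.36 (0.37 to 2.33, adjusted p = 0.115).

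Of 6 measured genes of ETF upkeep and flavin supply 0 passed, and the smallest adjusted p was that of Rfk, riboflavin kinase (-1.07, adjusted p = 0.242). Flad1, which makes FAD, stood at 1.05 (adjusted p = 0.248). Etfrf1, which regulates ETF by acting on its flavin, stood at -0.37 in its probe set of highest mean, whereas its other probe set passed downward (-1.97, limma adjusted p = 0.0214), a value named after it was seen.

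Of 9 genes of the carnitine shuttle and oxidation spiral 0 passed, with a median of 0.27 and the smallest adjusted p in Hsd17b10 (1.23, adjusted p = 0.164). Hadha (0.00) and Hadhb (0.59), the chains of the trifunctional protein, did not pass either. Of 9 peroxisomal counterparts 0 passed, with a median of 0.46 and the smallest adjusted p in Ech1 (1.32, adjusted p = 0.142). Of 9 genes of other enzymes that reduce ubiquinone 1 fell and 0 rose, with a median of -0.33. The gene that fell was Sdhd, an anchor chain of respiratory complex II (-1.76, 95% interval -2.79 to -0.70, limma adjusted p = 0.0403), and its other probe set stood at -1.29 (adjusted p = 0.141). The other chains of that complex, Sdha (0.38), Sdhb (0.66) and Sdhc (-0.53), did not pass. Leaving out 1 of the 20 arrays at a time ended the call of Sdhd 14 times (adjusted p up to 0.0701) and that of D2hgdh 13 times (up to 0.0621). The call of Sdhd was kept only in the fits that omitted replicate 1, 2 or 7 of the low-fat or replicate 7, 8 or 9 of the high-fat group. That of D2hgdh was kept only in those that omitted replicate 4, 6, 8 or 9 of the low-fat or replicate 3, 8 or 10 of the high-fat group.

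**Figure D5:**
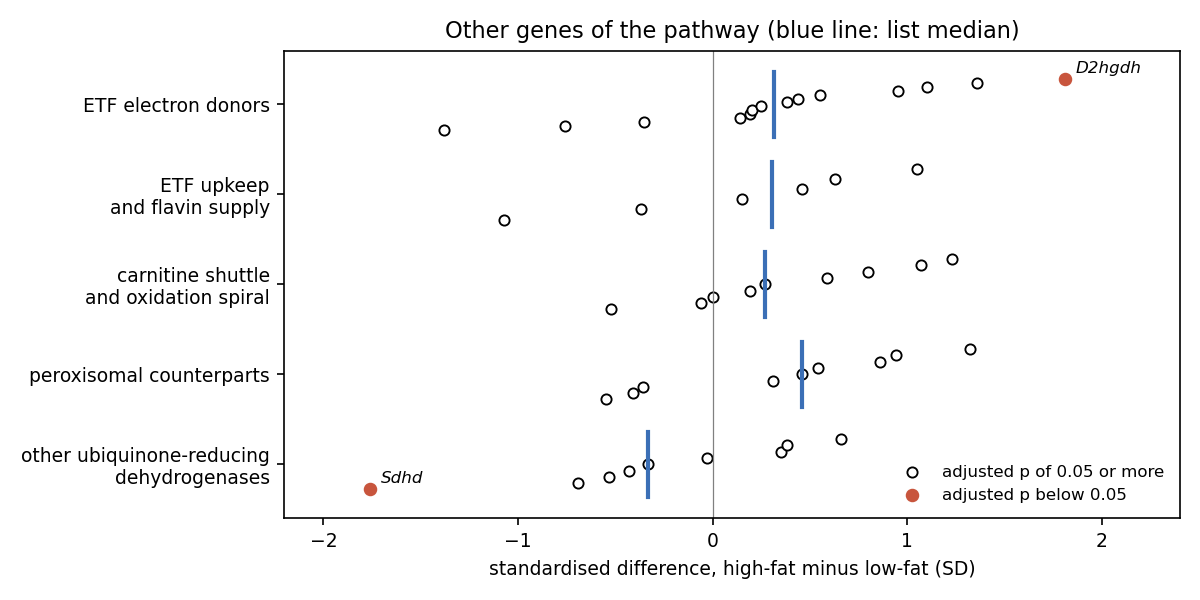
Standardised difference between diets (SD within diets, n = 10 each) of the 47 other genes of the pathway, by list; each point is a gene, filled where the limma adjusted p over all probe sets is below 0.05, and blue lines are list medians. D2hgdh (1.81) and Sdhd (-1.76) are the filled points, and 4 of the 5 medians lie above 0.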

How the data were processed

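Liver RNA of 20 mice was read on Affymetrix arrays, 1 per mouse, after biotin labelling with a 3′-end kit, per the labels' protocols. The deposited value is a score per probe set; the authors' summarisation and normalisation are not given in the sources used here. Of 45101 features, 64 are controls. Gene names came from the platform annotation: 34945 probe sets have 1 symbol, 932 several and 9160 none.

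Diets were compared with limma 3.58.1 (R 4.3.3, lmFit and eBayes, prior 0.778 degrees of freedom, two-sided, no covariate) over all 45037 other probe sets, with Benjamini-Hochberg adjustment and a threshold of 0.05. No filter on low values was used, so all 11 member probe sets were tested. Correlations used 100000 permutations of mice within diets, two-sided. The fit was tested on simulated data. The members, lists and tests were chosen with earlier results of these data known. Named were all members, list genes past the threshold or else the one of smallest adjusted p, and the 3 genes most like each member; other names were chosen after their values were seen.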

Additional observations from a re-analysis of the deposited data

Results flagged for a closer look

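A gap test for single mice was run in 26 groups of 10 (the member probe sets, D2hgdh and Sdhd, in each diet), and 4 groups had 1 mouse far from the others, where chance gives about 1 in 20 groups. For Etfa, low-fat replicate 9 lay low (gap over range 0.512), and without it the standardised difference was 0.02 (limma adjusted p = 0.994). For Etfb, high-fat replicate 7 lay high (0.469), and without it the value was 1.60 (adjusted p = 0.0868). For Eci1, high-fat replicate 5 lay high (0.509), and without it the value was 1.41 (adjusted p = 0.123). For Acaa2 in 1455061_a_at, high-fat replicate 9 lay low (0.632), and without it the value was -0.66 (adjusted p = 0.553).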

How the results depend on the processing

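Of the member probe sets 0 of 11 passed by limma. That count was 1 after quantile normalisation (Etfdh 1458152_at, -1.58, lower, of 5 whose values still differed between arrays), where 9.83% of all tested probe sets passed. Etfb, the 3 probe sets of Acaa2, Etfdh 1451084_at and Decr1 1419367_at no longer varied there and were not tested. The count was 9 (all lower) after centring arrays on their medians. Among probe sets above the median mean score it was 1 (Etfb, limma adjusted p = 0.039), where 5.58% of all passed. With 1 probe set per gene it was 1, where 3.49% of genes passed, and without 1 array it was 0 to 1. It was 0 with the replicate block. Median centring lowers every probe set of the high-fat mice by a mean of 73.3 millionths against the low-fat mice, and called 38616 of 45037, 38220 of them lower. Of the 11 member probe sets 10 had a diet difference smaller than this shift, which fixed their sign after centring in advance. Median centring turned the signs of Etfa (-1.32), Etfb (-1.12), Decr1 1419367_at (-1.13), Eci1 (-0.59) and D2hgdh (-0.73). Quantile normalisation called 380 higher and 3784 lower (median standardised difference -0.41) and turned Eci1 (-0.27) and D2hgdh (-0.45), with Eci2 at 0.00. The sign of Etfdh 1451084_at turned with low-fat replicate 8, low-fat replicate 10 or high-fat replicate 3 left out (range -0.40 to 0.08). The list genes gave 2 calls, also after quantile normalisation but there both higher, and 30 after median centring, 1 each with array weights, the rank sum test and without s- and x-suffixed probe sets, 0 with the replicate block (all probe sets 538 against 1043), and 0 to 2 without 1 array. Of the 21 pairs of members 1 passed. After quantile normalisation Decr1 1419367_at no longer varied, so that pair could not be tested, and 0 of the 3 pairs left passed. The count was 2 in low-fat mice alone (Decr1 with Eci1, and Etfa with Etfdh, adjusted permutation p = 0.0316), and 7 of 55 over all member probe sets, of which 3 pair probe sets of the same gene and 2 pair Decr1 with Eci1. Causes were not tested. The sample titles give replicate numbers and do not say whether equal numbers pair the mice. The arrays gave little sign of a pairing, which cannot show that there was none. Of 10 same-numbered pairs of arrays 2 had deviations correlated above 0.1, and 3 of 20 arrays correlated best with their own number.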

Other observations

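Replicate 9 of either diet lay at an end of the range for several members, counted over probe sets, some of which share a gene. High-fat replicate 9 had the lowest high-fat value in 6 of the 11 member probe sets, and in 11.2% of all probe sets. Low-fat replicate 9 had the lowest low-fat value in 5 of 11, and in 12.6% of all, and the highest in 3 of 11. Over the 7 genes (probe set of highest mean) the lowest counts are 3 for high-fat and 4 for low-fat replicate 9. The spread within diets also differed for some members: the SD of Etfdh 1451084_at was 2.15 times as large in low-fat as in high-fat mice, and that of Etfb 1.56 times. The SD of each probe set of Acaa2 was larger in high-fat mice, by 1.59, 4.72 and 1.98 times. These spreads were not tested.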
